A study of Drosophila melanogaster with 2 samples.

Results

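The Dpr, DIP, Beat and Side genes encode 4 families of cell-surface proteins with immunoglobulin domains that take part in the wiring of the Drosophila nervous system. They were picked by symbol alone from the protein-coding genes of the Ensembl annotation, as dpr followed by a digit, names that begin with DIP-, beat- or side-, and side itself. This gave 54 genes of 13945 coding genes on the 6 chromosome arms that carry peaks, namely 21 dpr, 11 DIP, 14 beat and 8 side genes. Chromatin immunoprecipitation with sequencing (ChIP-seq) had been done on whole embryos, male and female pooled, aged 0 to 12 h, of the strain lola-J-GFP, a stable transgenic line whose Lola-RJ protein carries GFP at its C terminus. The precipitating antibody was against GFP per the sample description, while the antibody field names lola. All samples belonged to this 1 group, with biological replicates 1 and 3, and no other genotype, age or mock precipitation was analysed here. In whole embryos, binding in few cells and no binding cannot be told apart.

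Dpr proteins and DIPs (Dpr-interacting proteins) bind each other in selective pairs across the gap between neurons and their partners, and are known for synapse choice in the fly visual system and at the neuromuscular junction. Beat (beaten path) and Side (sidestep) proteins form a second such network, in which Beat-Ia on motor axons recognises Side on the muscles and other substrates that the axons follow. Lola is a BTB zinc-finger transcription factor with many splice forms, known for its part in axon growth and guidance.

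The DNA at the strongest sites in these genes shows what kind of sequence carried the peaks. For each gene its strongest summit (the single base of highest signal that the authors gave for a peak) and the 50 bases on each side of it are printed from the plus strand of the dm6 genome, with the longest unbroken run of A and T in capitals. The first 3 lie in introns and hold the strongest summits of their genes. The last 3 belong to the genes with a summit of the IDR-thresholded list (the stricter of the lists) within 500 bp of their own start site.

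beat-Ib, 2L:15912126-15912226, A/T 78.2%: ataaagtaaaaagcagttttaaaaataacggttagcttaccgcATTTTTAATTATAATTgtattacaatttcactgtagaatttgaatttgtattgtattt

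DIP-alpha, X:3546286-3546386, A/T 74.3%: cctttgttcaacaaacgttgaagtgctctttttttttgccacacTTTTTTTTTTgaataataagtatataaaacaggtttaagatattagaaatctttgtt

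side-IV, 3R:13452971-13453071, A/T 74.3%: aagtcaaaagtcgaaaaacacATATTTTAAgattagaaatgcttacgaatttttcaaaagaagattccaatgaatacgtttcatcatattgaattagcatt

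dpr19, 2L:10375872-10375972, A/T 78.2%: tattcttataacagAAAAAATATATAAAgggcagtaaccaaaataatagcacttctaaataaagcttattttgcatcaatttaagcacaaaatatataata

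dpr14, X:7908663-7908763, A/T 65.3%: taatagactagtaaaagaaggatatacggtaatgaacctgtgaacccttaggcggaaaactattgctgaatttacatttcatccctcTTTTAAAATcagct

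dpr2, 2L:10964563-10964663, A/T 66.3%: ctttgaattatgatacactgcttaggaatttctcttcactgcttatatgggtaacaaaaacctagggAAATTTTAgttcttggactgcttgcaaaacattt

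The A/T share of such windows was close to that of the whole list. Over the 19 summits of the IDR-thresholded list in the loci of the family, the A/T share had a median of 72.3% (range 60.4% to 83.2%), against 71.3% over all 6154 windows of that list. The longest A/T run had a median of 11 bases in both sets. Of 4 short motifs searched on both strands, GAGAG (bound by the GAGA factor) stood in 2 of the 19 windows, against 7.30% of all windows, and ATCGAT (the core of the DNA replication-related element) in 1, against 4.22%. CAGGTAG (bound by Zelda) and CACGTG (an E-box) stood in none of the 19, against 0.292% and 0.455%. With 19 windows, shares this low allow no comparison.

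A smaller share of these genes than of all coding genes carried a Lola-J-GFP summit. A summit lay within 500 bp of a transcription start site (TSS) in 3 of 54 genes (5.56%) in the IDR-thresholded list, against 22.9% of all 13945 coding genes. IDR, the irreproducible discovery rate, sets a cut by how well the ranks of peaks hold between replicates, and here all 6154 peaks of the list were the 6154 strongest of the pooled list. Over the locus, taken here as the gene with 2 kb of flank at both ends, 10 of 54 genes (18.5%) had a summit in this list, against 38.2% of all coding genes. The pooled list of 30000 peaks reaches far weaker sites, with a median signal of 52.7 on the authors' scale, against 268 in the IDR-thresholded list. There the counts were 9 of 54 genes (16.7%) near a TSS and 14 of 54 (25.9%) over the locus, against 49.9% and 64.7% of all coding genes.

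Gene length was taken into account next, as a longer locus can hold more summits. The 54 genes had a median span of 36.2 kb, and 43 of them were in the longest of 10 equal length classes of coding genes (14.6 kb or more). If each gene had been bound as often as the other coding genes in its own length class, 16.0 of the 54 would have had a promoter summit and 32.1 a locus summit in the IDR-thresholded list, and 34.6 and 42.1 in the pooled list. Counts found were 3, 10, 9 and 14. Of the 43 in the longest class, 8 (18.6%) had a pooled summit in the locus, against 1054 of 1351 other genes of that class (78.0%). In replicate 3 alone it was 13 of 43 (30.2%), against 87.5% of the others. The median of the 43 was 0 pooled summits, against 7 in those other genes. The 11 shorter genes, of 3.74 to 13.6 kb, had a pooled summit in 6 cases, against 8.56 from genes of like length. These are counts in 1 set of peaks, and no test was made of them.

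Each of the 4 families lay below the count for genes of like length. In the pooled list 6 of 21 dpr genes had a locus summit (16.3 from genes of like length), 2 of 11 DIP genes (8.57), 2 of 14 beat genes (10.9) and 4 of 8 side genes (6.25). In the IDR-thresholded list the counts were 4, 2, 2 and 2, against 12.1, 6.68, 8.59 and 4.73 from genes of like length. In replicate 3 alone 6 of 14 beat genes had a locus summit (12.2 from genes of like length), and in replicate 1 alone 2 did. The promoter summits of the IDR-thresholded list were all in dpr genes, in 3 of 21 (6.28 from genes of like length). None of the 11 DIP genes had a promoter summit even in the pooled list (7.04 from genes of like length). The families differ in length and number, and differences between them were not tested.

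**Figure D1:**
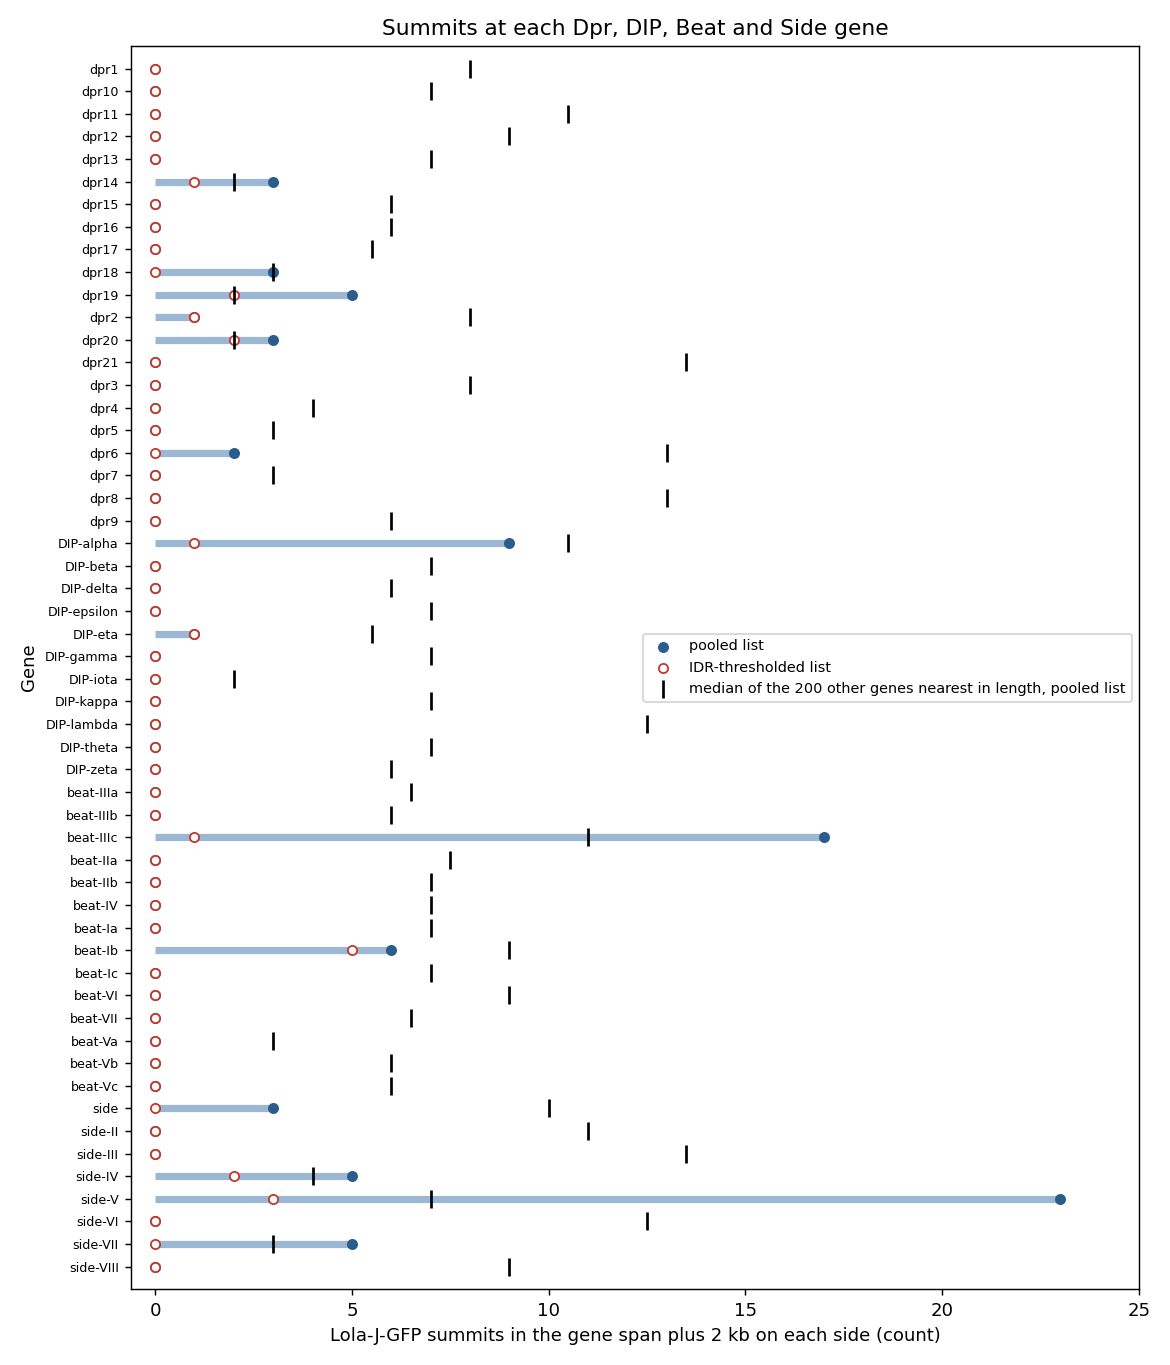
Number of summits (horizontal axis) in the gene span plus 2 kb of each of the 54 genes (rows), in the pooled list (filled points, bars) and the IDR-thresholded list (open points), with the median of the 200 other coding genes nearest in length as a black tick. Most rows sit at 0, and side-V with 23 and beat-IIIc with 17 stand above their ticks at 7 and 11. The rows of dpr14, dpr19, dpr20, side-IV and side-VII also stand above their ticks, by less. All pooled summits are counted, also those with a low deposited −log10 q (a measure of the evidence for a peak).

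The counts were below those of genes of like length at each depth counted. Among the 1000 strongest pooled peaks 3 members had a locus summit, against 10.7 from genes of like length. All 14 members with a pooled summit were reached within the first 15000 peaks, where genes of like length gave 40.1. The next 15000 peaks added none, while genes of like length rose only to 42.1. Members with a promoter summit rose from 6 to 9 over those peaks, and genes of like length from 29.3 to 34.6. Both replicates gave low counts on their own. In the 6154 strongest peaks of replicate 1, 9 members had a locus summit (37.7% of all coding genes did) and 3 a promoter summit (23% of all). In those of replicate 3 the counts were 12 (38.4% of all) and 2 (22.3% of all). With all 30000 peaks, replicate 1 gave 15 members over the locus (65.4% of all coding genes) and 10 at promoters (50.6% of all). Replicate 3 gave 20 over the locus (69.6% of all) and 9 at promoters (51% of all).

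**Figure D2:**
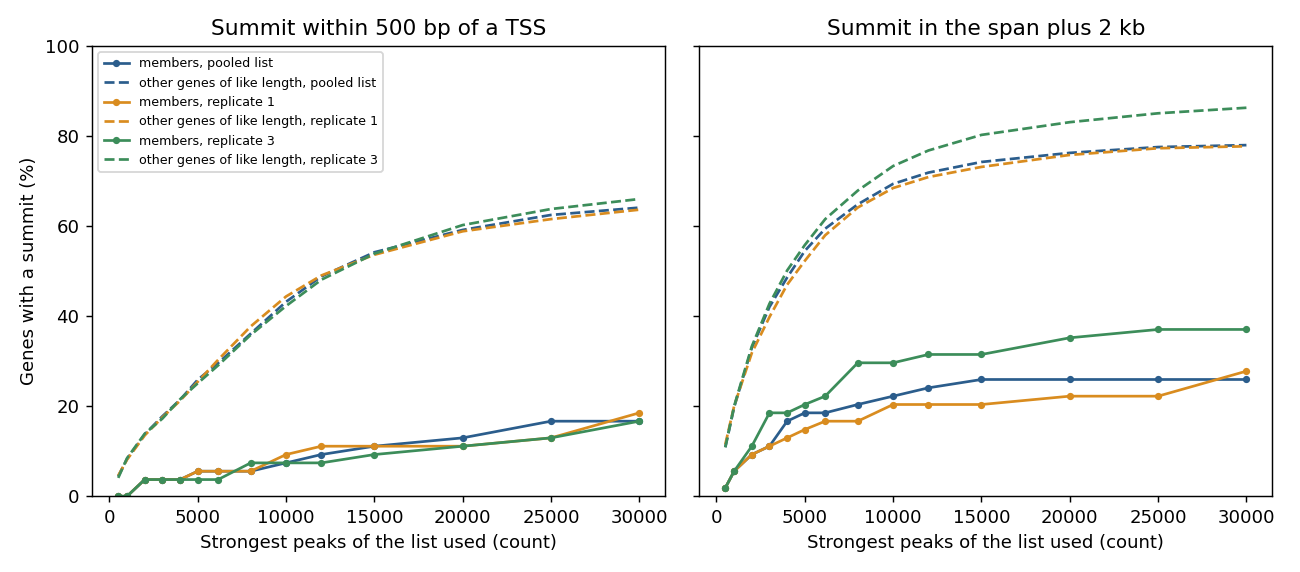
Share of the 54 members (solid lines) and of other coding genes of like length (dashed lines) with a summit near a TSS (left) or in the locus (right), by how many of the strongest peaks of each list were used. With all 30000 pooled peaks the members reached 16.7% and 25.9%, against 64.1% and 78.0% for genes of like length.

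Loci of the family held 19 summits of the IDR-thresholded list and 86 of the pooled list over 2.74 Mb of merged sequence. That was 6.94 and 31.4 summits per Mb. Other genes of the longest class had 42.7 and 232.5 per Mb, and the 6 arms as a whole 46.0 and 224.1. Of the 19 summits 13 lay in introns, 5 upstream of the gene and 1 downstream, and none lay in an exon. Their signal ran from 150.8 to 1048, with a median of 269, close to that of the whole IDR-thresholded list. Within 100 bp a matching summit was found in replicate 3 for all 19 and in replicate 1 for 16. The 3 without a match in replicate 1 were 1 summit each in DIP-eta, beat-Ib and side-IV. Among the 6154 strongest peaks of each replicate, 12 of the 19 had a match in both. The list was called on reads of both replicates, so such matches are partly fixed by its making.

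Among the Dpr genes, dpr19, dpr14 and dpr2 had promoter summits in the IDR-thresholded list. dpr19 (FBgn0032233, 2L:10376168-10379905) had 2 of them, with signals of 500.7 (rank 1400 of the pooled list) and 274 (rank 2997), at 246 and 41 bp upstream of its TSS. The stronger ranked 1236 in replicate 1 and 1524 in replicate 3, and the weaker 6522 and 3329. Both were within 500 bp of the TSS of the neighbour CG33303 as well, and their peaks overlapped, with the same start. At dpr14 (FBgn0029974, X:7903704-7908286) a summit of signal 487 (rank 1462, and 1523 and 1465 in replicates 1 and 3) lay 427 bp upstream of its TSS and 218 bp from that of the neighbour spidey. dpr2 (FBgn0261871, 2L:10917015-10964153) was the member with a promoter summit of the IDR-thresholded list that no other coding TSS shared. That summit was weak, with a signal of 178 (rank 4841), 460 bp upstream, and ranked 4183 in replicate 1 and 6404 in replicate 3.

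The other Dpr loci with summits were those of dpr20, dpr18 and dpr6. At dpr20 (FBgn0035170, 3L:852720-857248) a summit of signal 353 (rank 2226, and 2903 and 1823 in replicates 1 and 3) lay downstream of the gene, within 500 bp of the TSS of Dci, and another of signal 211 (rank 4014, and 4200 and 3810) lay 538 bp upstream of its own TSS, in or within 500 bp of an annotated copy of the Tirant transposon. dpr18 and dpr6 had pooled summits alone. Those of dpr18 were weak (signals 79.4, 52.9 and 25.4) and had matches in replicate 1 and none in replicate 3. dpr6, whose product binds DIP-alpha as does that of dpr10, had 2 summits in 164.7 kb, of signals 56.5 and 34.5. The stronger stood 78 bp from the TSS of CG42455, and the weaker 243 bp upstream of dpr6. The remaining 15 Dpr genes (dpr1, dpr3, dpr4, dpr5, dpr7, dpr8, dpr9, dpr10, dpr11, dpr12, dpr13, dpr15, dpr16, dpr17 and dpr21) had no pooled summit in the locus.

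Among the DIP genes, DIP-alpha and DIP-eta had summits. DIP-alpha (FBgn0052791, X:3507245-3571649) encodes a receptor known from motor neurons and the visual system. Its strongest summit had a signal of 852 (rank 621) and ranked 523 in replicate 1 and 745 in replicate 3. It lay in intron 2, 15.7 kb upstream of the inner of its 2 TSSs, in or within 500 bp of a non-coding gene (lncRNA:CR34335). The pooled list held 8 further summits with signals of up to 123, of which 7 lay in introns between the gene's 5′ end and the strong summit. The other one lay upstream of the gene, 1 bp from the TSS of CG2875. DIP-eta (FBgn0031725, 2L:5601723-5617946) had 1 summit, of signal 257 (rank 3218), in intron 5, 7.66 kb from its TSS, which ranked 2872 in replicate 3 and had no match in replicate 1. DIP-beta, DIP-gamma, DIP-delta, DIP-epsilon, DIP-zeta, DIP-theta, DIP-iota, DIP-kappa and DIP-lambda had none in the pooled list.

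The summit of highest signal in the whole family was in beat-Ib (FBgn0028645, 2L:15905134-15962435), toward the 3′ end of a 57.3 kb gene. Its 5 summits of the IDR-thresholded list had signals of 1048, 1037, 768, 236 and 189 and all lay in intron 2, between 49.1 and 53.8 kb from the TSS. The 3 strongest (ranks 405, 416 and 742) ranked 357, 417 and 965 in replicate 1 and 488, 438 and 655 in replicate 3. They lay in or within 500 bp of the non-coding genes lncRNA:CR44867 and lncRNA:CR44868, and the nearest coding TSS, that of CG13244, was 3.78 to 5.62 kb away. The fourth had no match in replicate 1 and ranked 2183 in replicate 3, and the fifth ranked 1588 in replicate 1 and 2050 in replicate 3. The 49.1 kb between the TSS and the nearest of these summits held no other pooled summit.

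beat-IIIc (FBgn0032629, 2L:17187637-17260734) had many weak sites. Its 17 pooled summits spread over 41.5 kb had a median signal of 57.2, and 1 of them, of signal 235 (rank 3570) in intron 2, was in the IDR-thresholded list. That summit ranked 5390 in replicate 1 and 2814 in replicate 3, and 9 of the 17 had a match in both replicates. Over the 17 the deposited −log10 q (lower for weaker evidence) ran from 4.33 down to 0.612 at the weakest summit. A pooled summit of signal 84.5 lay 28 bp downstream of its TSS, the only promoter summit of a beat gene in that list. The other 12 beat genes (beat-Ia, beat-Ic, beat-IIa, beat-IIb, beat-IIIa, beat-IIIb, beat-IV, beat-Va, beat-Vb, beat-Vc, beat-VI and beat-VII) had no pooled summit. They include beat-Ia, whose product is the motor axon receptor for Side.

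Of the 8 Side genes, 4 had a pooled summit and 2 an IDR-thresholded one. side-IV (FBgn0038156, 3R:13450590-13464184) had summits of signal 699.7 (rank 847, and 803 and 966 in replicates 1 and 3) and 262 (rank 3152) in intron 2, 2.43 and 3.56 kb from its TSS. The weaker had no match in replicate 1 and ranked 3612 in replicate 3. side-V (FBgn0085400, 2R:23163012-23203973) had the most summits of any member, 23 in the pooled list, of which 3 were in the IDR-thresholded list with signals of 269, 159 and 151. These ranked 3409, 8460 and 8093 in replicate 1 and 2830, 4171 and 5300 in replicate 3. Its pooled summits had a median signal of 38.3, and 7 of the 23 had a match in both replicates. The deposited −log10 q was 1.29 at the summit of that median signal and 0.566 at the weakest, so many of the 23 had weak evidence. The 200 other genes nearest to it in length had a median of 7 pooled summits. side, which encodes the attractant for motor axons, had 3 pooled summits, of signals 93.4, 43.8 and 30.6, 15.5 to 21.3 kb from its TSS. side-VII had 5, the strongest (signal 113) 50 bp from the TSS of its neighbour Pnn. side-II, side-III, side-VI and side-VIII had none.

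**Figure D3:**
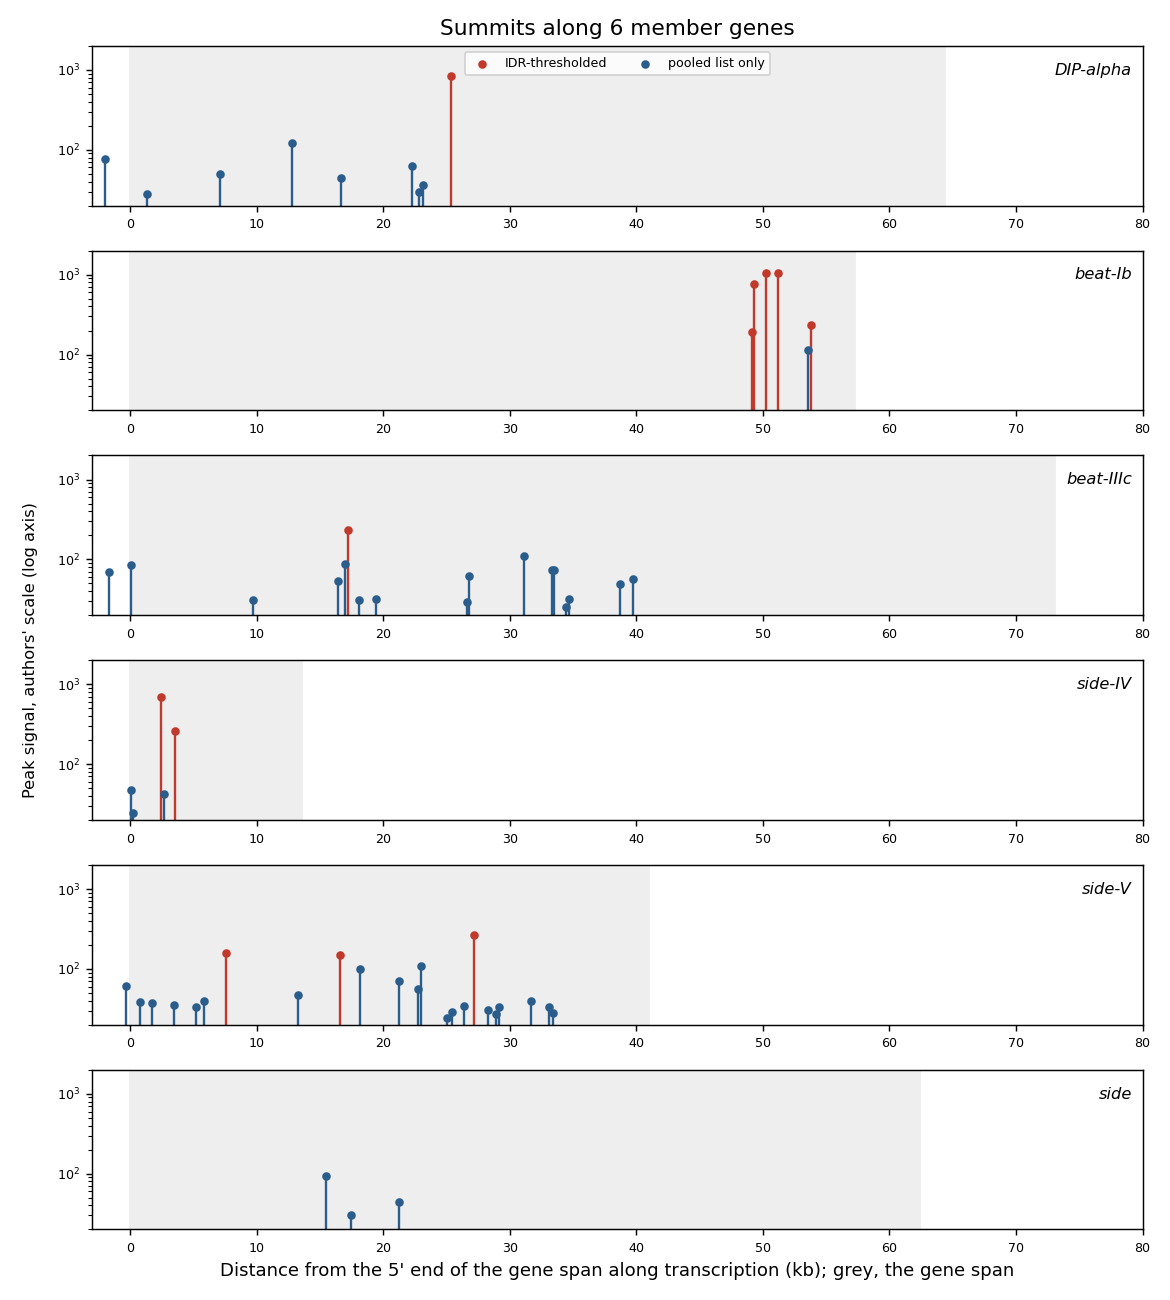
Signal of each pooled summit (vertical log axis, authors' scale) against its distance from the gene's 5′ end in kb, for DIP-alpha, beat-Ib, beat-IIIc, side-IV, side-V and side, with summits of the IDR-thresholded list in red and the gene span in grey. The beat-Ib summits stand together 49.1 to 53.8 kb into the gene, whereas those of side-V and beat-IIIc are spread along it.

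Most members without summits lay in long stretches of the arms that held no summit of the list. Of the 54 genes 37 (68.5%) had their whole span inside a stretch of 100 kb or more between neighbouring pooled summits, against 191 of 1351 other genes of the longest class (14.1%) and 14.9% of all coding genes. Such stretches numbered 179 and made up 31.4% of the arms. A span lies inside one only if it holds no summit, so the shares above partly repeat the locus counts. Members and other genes were not compared among genes without a summit alone. The longest peak-free stretch that touched a member had a median of 166 kb, against 29.8 kb for other genes of the longest class. In replicate 3 alone the medians were 105 kb and 23.2 kb. In replicate 1 on its own 37 members, and in replicate 3 on its own 24, lay wholly inside such a stretch, against 188 and 103 of the 1351 other long genes. Of the 40 members without a pooled summit 35 were inside a stretch of this length. The other 2 of the 37 were dpr2 and dpr6, each bounded on one side by its own promoter summit.

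Neighbouring beat genes shared a peak-free stretch of the pooled list. beat-Va, beat-Vb and beat-Vc lay in 258 kb of 3R (3R:12722702-12980875), which held 15 coding genes. beat-IIa and beat-IIb lay in 235 kb (3R:17150478-17385825). beat-Ia and beat-Ic lay in 312 kb of 2L (2L:15913317-16225728) that began at the last of the beat-Ib summits, and beat-IIIa and beat-IIIb in 333 kb (2L:16888270-17220997) that ended at the first of the beat-IIIc summits. In replicate 3 alone several of these stretches were broken. There the longest stretch touching each gene was 62.3 kb at beat-IIa, 24.8 kb at beat-IIb, 60.5 kb at beat-Ia and 112 kb at beat-Ic, while it was 236 kb at the beat-V genes and 304 kb at beat-IIIa and beat-IIIb. dpr6 and dpr10 shared 231 kb of 3L (3L:9974409-10205532), and dpr4 and dpr5 shared 122 kb of 3R. On 2R, DIP-lambda (379 kb) and dpr21 (124.5 kb) lay toward the centromere, in stretches of 2847 and 1095 kb. Neither gene had a summit in any list, and how well reads map there was not tested.

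**Figure D4:**
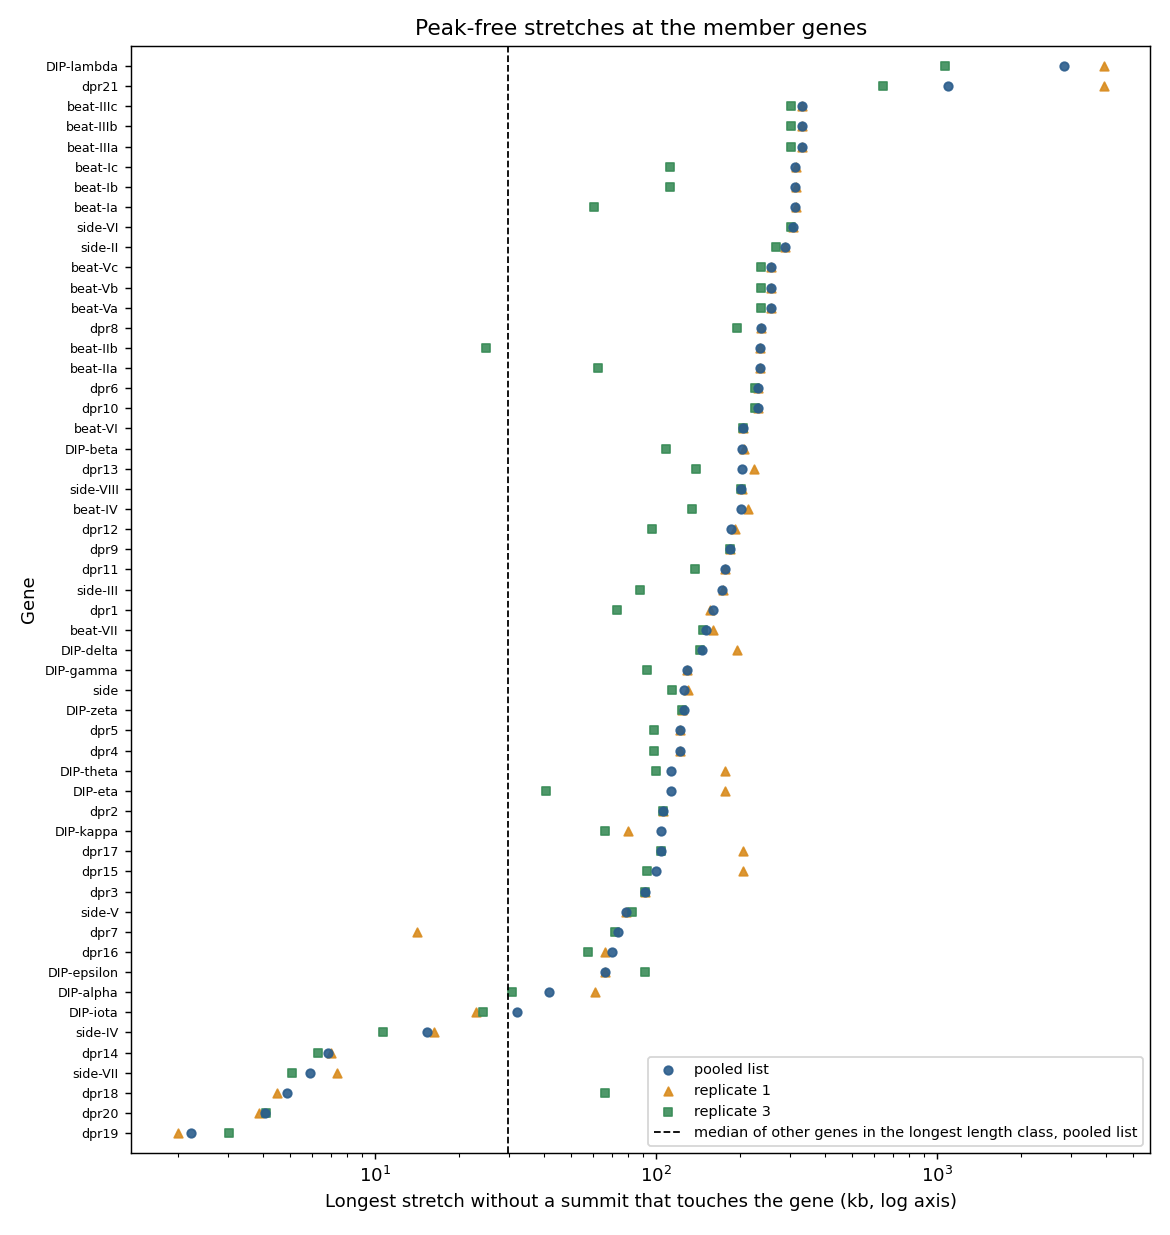
Longest stretch without a summit that touches each gene, in kb on a log axis, for the pooled list (circles), replicate 1 (triangles) and replicate 3 (squares), with the genes ordered by the pooled value. The dashed line is the median of 29.8 kb for other genes of the longest class, and most members lie to its right.

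The distance from start site to summit was measured for each gene. The nearest pooled summit was 36.4 kb from a member's TSS at the median, against 0.243 kb for other genes of the longest class and 0.503 kb for all coding genes. It was over 10 kb away for 40 of 54 members (74.1%), against 19.7% and 21.6%. A gene with an empty locus has no summit near its TSS, so these distances partly repeat the locus counts. Neighbouring genes were counted in the same way. Of the 559 other coding genes within 50 kb of a member, 204 (36.5%) had a pooled promoter summit, whereas 49.9% of all coding genes did. Near the 40 members without a pooled summit it was 83 of 346 (24.0%). Near the 14 members with one it was 121 of 234 (51.7%), close to the share of all coding genes. A gene can be a neighbour in both groups. Genes nested in a member's span were counted as neighbours, 25 at the 40 members and 12 at the 14. A start site inside an empty locus has no pooled summit near it, so these shares too partly repeat the locus counts. Some of these summits are shared with a member, as at dpr19 and dpr14.

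Replicate 3 alone had summits in some genes that the pooled list left empty. beat-IIb had 5 and side-III 9 there, with best ranks of 4181 and 5863, and beat-IIa had 5, beat-Ic 3 and beat-Ia 1. None of these had a pooled or replicate 1 summit within 250 bp. The beat-Ia summit ranked 6584 and lay 179 bp upstream of its TSS. Across the genome 171 of the 6154 strongest summits of replicate 3 (2.78%) had no pooled summit within 1 kb, against 23 (0.374%) in replicate 1. DIP-iota had a weak summit in both replicates 2 bp apart (ranks 25591 and 22405) and none in the pooled list, and dpr7 had 1 in replicate 1 (rank 25315). This left 33 of the 54 genes without a locus summit in any list. In the full list of replicate 3 alone, 69.6% of all coding genes had a locus summit. The share of all coding genes without one in any list was not counted.

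The promoters of the family were compared with others by their letters. In the 300 bases around the outermost TSS (250 upstream and 50 from the TSS on), the A/T share had a median of 50% over the 54 members, against 56.0% in other genes of the longest class and 62.0% in all coding genes. GAGAG, on either strand and with overlapping matches allowed, stood in 31 of 54 member promoters (57.4%), against 47.4% in other genes of the longest class and 29.7% of all. The families were uneven, with GAGAG in 12 of 14 beat, 5 of 8 side, 10 of 21 dpr and 4 of 11 DIP promoters. ATCGAT stood in 2 (3.70%), against 16.5% and 23.3%. CACGTG stood in 5 (9.26%), against 4.44% and 4.20%, and CAGGTAG in none, against 1.18% and 1.64%. Of the 40 members without a pooled summit, 26 had GAGAG and none had ATCGAT. Of the 14 with a pooled summit, 5 had GAGAG and 2 had ATCGAT. These are matches of letters in a window and were not tested.

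The promoters of beat-IIb and beat-Ia held 8 and 7 GAGAG matches and no pooled summit, and they are shown as examples of GAGAG-rich promoters. The beat-Ia window holds the summit that replicate 3 alone gave (rank 6584). They are printed on the gene's own strand, with the matches of GAGAG or its complement in capitals.

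beat-IIb, 3R:17265000-17265299, minus strand, A/T 53.3%: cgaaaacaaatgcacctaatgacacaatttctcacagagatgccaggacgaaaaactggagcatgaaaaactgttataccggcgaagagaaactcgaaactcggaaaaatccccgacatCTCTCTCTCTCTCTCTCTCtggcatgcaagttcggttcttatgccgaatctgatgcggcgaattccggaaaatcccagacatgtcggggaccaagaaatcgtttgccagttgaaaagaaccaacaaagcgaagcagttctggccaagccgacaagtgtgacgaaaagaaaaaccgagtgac

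beat-Ia, 2L:16049715-16050014, plus strand, A/T 50.7%: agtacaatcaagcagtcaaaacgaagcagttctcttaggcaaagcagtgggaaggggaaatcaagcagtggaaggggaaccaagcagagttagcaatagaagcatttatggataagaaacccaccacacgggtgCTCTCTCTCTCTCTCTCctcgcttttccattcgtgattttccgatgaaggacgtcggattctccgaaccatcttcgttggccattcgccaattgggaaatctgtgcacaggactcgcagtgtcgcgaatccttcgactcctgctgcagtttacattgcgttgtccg

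Known binding partners were looked at as pairs. Of 14 pairs among the members listed from background knowledge (such as DIP-alpha with dpr6, side with beat-Ia and DIP-gamma with dpr11), none had an IDR-thresholded summit in both genes, 4 had one in 1 gene and 10 in neither. The 4 came from DIP-alpha and side-IV alone, as genes recur among the pairs. In the pooled list DIP-alpha and dpr6 were the 1 pair with summits in both. Over all members 10 of 54 (18.5%) had an IDR-thresholded locus summit and 14 of 54 (25.9%) a pooled one. With shares this low and so few pairs, the counts say nothing about partners as such.

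Other genes of immunoglobulin-type and related cell-surface or secreted proteins, many of them known from neural wiring, were counted for comparison. In a list of 39 such genes, with a median span of 33.1 kb, 29 (74.4%) had a pooled locus summit, against 30.0 from genes of like length and 14 of 54 members. In the IDR-thresholded list 21 of 39 had one (22.3 from genes of like length). Near a TSS, 25 of 39 had a pooled summit (24.6 from genes of like length) and 7 of 39 (17.9%) an IDR-thresholded one, against 11.4 from genes of like length. The strongest were at Ama (signal 2536), ImpL2 (1929), kirre (1393), lbk (1295) and fra (1191), which encodes the Netrin receptor Frazzled. Of the 39 genes 10 had no pooled summit, among them Dscam2, robo3, klg and kek1.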

How the data were processed

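The data were 4 peak lists on dm6, from 2 biological replicates of 1 group. Per the submitters' file records, peaks were called from each replicate and from both together, with a control alignment, and 1 list was thresholded by IDR. Aligner and caller: not given in the sources used here. Each peak has a deposited signal value (its scale is not given), which ranked peaks within a list, a deposited −log10 q value, not used to rank or filter, and a summit offset. Read depth is unknown. Genes and TSSs came from Ensembl release 115 and sequence from NCBI's genome file of that assembly (no peak ran past an arm's end). Summits were counted within 500 bp of any coding TSS and in the span plus 2 kb with Python 3.11.15, by functions tested on simulated summits. Numbers for genes of like length sum, over members, the share bound among other coding genes in the same of 10 length classes. No p-value was computed. All members are named, with values per summit for those with IDR-thresholded summits. The members and lists were chosen with earlier results of these data known, and the peak-free stretches, neighbours and GAGAG examples were examined after seeing the data. Partner pairs and the 39 genes came from background knowledge. The replicates came from separate embryo samples of 1 line, per the labels.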

Additional observations from a re-analysis of the deposited data

How the results depend on the processing

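Of 40 alternatives, 35 gave a value within 1.5 times that reported. With a promoter window of 250 bp, 1 member had a summit in the IDR-thresholded list (18.2% of all coding genes, 9.85 members from genes of like length) and 4 in the pooled list (41.9% of all, 28.0 from genes of like length). Leaving out summits within 500 bp of another coding TSS, chosen for promoters after seeing the data, left 1 member with an IDR-thresholded promoter summit (dpr2), while the share of all coding genes was 8.63% and genes of like length gave 10.8. With the gene span alone, 6 members (11.1%) had an IDR-thresholded locus summit, close to the 12.3% of all coding genes, while genes of like length gave 24.2. Using a single replicate gave 2 to 3 members at promoters and 9 to 12 over loci for the IDR-thresholded list, and 9 to 10 and 15 to 20 for the pooled list. Matching on the number of TSSs in place of length gave 11.6 members with an IDR-thresholded promoter summit and 25.96 with a pooled one, against 3 and 9 found. The same matching over loci, added after seeing the data, gave 19.7 and 34.2, against 10 and 14 found. For the 8 side genes it gave 2.57 and 4.71, close to the 2 and 4 found. It gave 7.98 and 13.6 for dpr (4 and 6 found), 3.91 and 6.86 for DIP (2 and 2), and 5.24 and 9.01 for beat (2 and 2). The causes were not tested. No paired analysis was possible because the samples form 1 group. Depth, control signal and mapping were unknown, so an empty locus means no listed peak.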
